A study of Mus musculus with 12 samples.

Results

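The complement genes described here are 9 mouse genes, C1qa, C1qb, C1qc, C2, C3, C4b, Cfb, Cfi and C3ar1, chosen by symbol from the 37681 genes of the count table. All 9 were found and all 9 had enough reads to be tested. The libraries were made from a thin slice of kidney cortex of male C57BL/6 mice, 18 months old and untreated, with one library from each of the 2 kidneys of a mouse. The 3 TG+ mice (43-29, 43-49 and 43-75) carried TRACK/γ-HIF1αM3, a mutant and constitutively active form of the hypoxia-inducible transcription factor HIF1α that is made in the proximal tubules, and the 3 TG- mice (43-26, 43-50 and 43-76) were littermates without it. TRACK mice are a model of clear cell renal cell carcinoma, and the comparison asked which genes differ in the cortex when this transgene is present. The promoter that drives the transgene and the number of founder lines are not given in the sources used here.

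Complement is a set of blood and tissue proteins that mark targets for removal and call in inflammatory cells. In the classical pathway C1q, built from the chains encoded by C1qa, C1qb and C1qc, binds a target and switches on proteases that cut C4 and C2. In the alternative pathway factor B (Cfb) joins to C3b. Both routes form a convertase that cuts C3, the central protein of the cascade, and factor I (Cfi) destroys active C3b and C4b. The C3a fragment is sensed by the receptor encoded by C3ar1. The liver makes most circulating complement, tissue macrophages are the known main source of C1q, and kidney tubule cells are known to make C3 and factor B themselves.

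Reads on genes numbered between 21888584 and 33704850 per library and between 48052131 and 60506785 per mouse. The labels were checked with 8 genes of the HIF response, of which 6 were higher in TG+ mice past the threshold of the study, and Hif1a itself was not called (log2 fold change -0.12, adjusted p = 0.343 in edgeR's quasi-likelihood test). Podocyte and proximal tubule genes were present in all mice, which fits the tissue named in the labels, with proximal tubule markers summing to between 30920 and 44680 CPM per mouse (CPM are reads scaled to the normalised library size). Transcripts of fat cells (Adipoq, Plin1, Cidec, Lep, Plin4 and Retn, a list drawn up after the data were seen, with CPM here taken on raw library totals) summed to 14.2 CPM or more in 4 of the 12 libraries, namely both of 43-49, kidney 1 of 43-50 and kidney 2 of 43-75, and to at most 3.99 CPM in the other 8.

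C3 rose, C1qa and C1qb rose by a smaller amount, and Cfb, C2 and C4b fell in TG+ cortex. For C3 the mean level was 2.76 times that of TG- mice, for C1qa and C1qb 1.47 and 1.53 times, and for Cfb, C2 and C4b 0.678, 0.706 and 0.806 times. At the threshold of the study (more than a 2-fold rise or a fall to under 0.5, at an adjusted p under 0.01) C3 was the single member called, 1 of 9 higher and 0 of 9 lower, where 3.77% of the 19399 genes tested were called higher and 0.211% lower. With the fold limit dropped and an adjusted p below 0.05 (called on the adjusted p alone from here on), 3 of 9 were higher and 3 of 9 lower, against 15.4% and 10.9% of all genes tested. The calls of C1qa, C1qb and C4b did not hold when some single mice were left out. C1qc had a ratio near that of C1qa (1.45 against 1.47) but was not called. The median log2 fold change of the 9 members was 0.54, with a range from -0.56 to 1.46, and the median of all genes tested was 0.012. The TG+ and TG- mice did not overlap in 7 of the 9 members, 4 with all TG+ mice above and 3 with all TG+ mice below, where 23.4% and 20.8% of all genes tested were separated in these ways. With 3 mice against 3, an exact 2-sided permutation test cannot give a p below 0.1, and each of those 7 members reached 0.1.

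**Figure D1:**
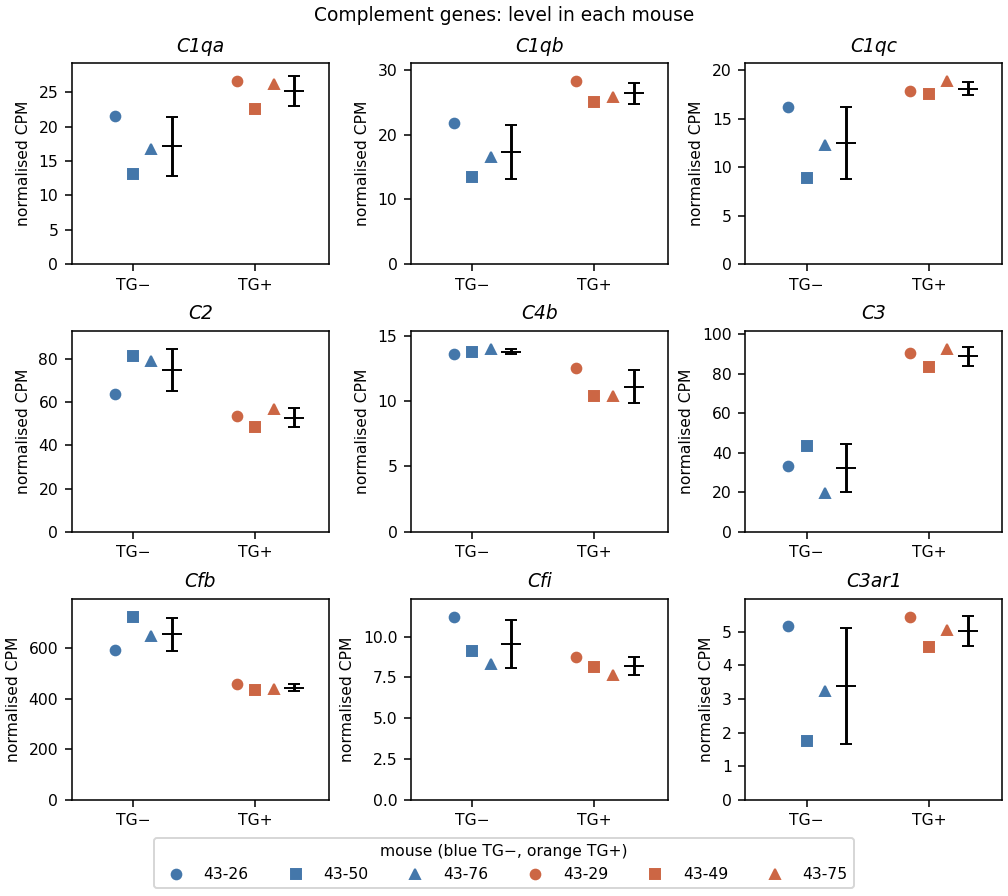
Normalised CPM (vertical axis of each panel, starting at 0) of the 9 complement genes in the 3 TG- mice (blue) and the 3 TG+ mice (orange), each mouse being the sum of its 2 kidneys, with the mean and SD in black. C3 stood between 83.5 and 92.4 CPM in TG+ mice and between 19.5 and 43.7 in TG- mice, and the groups overlapped for Cfi and C3ar1.

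C3 (ENSMUSG00000024164, chromosome 17 from 57203970 to 57228136 on GRCm38, minus strand) encodes the protein that every pathway of complement cuts. Its level was 90.5, 83.5 and 92.4 CPM in the TG+ mice 43-29, 43-49 and 43-75. In the TG- mice 43-26, 43-50 and 43-76 it was 33.2, 43.7 and 19.5 CPM. Every TG+ mouse was above every TG- mouse, and the TG- mice differed from each other more (SD 12.1 CPM, n = 3) than the TG+ mice did (SD 4.66 CPM, n = 3). The log2 fold change was 1.46 (SE 0.24), a fold of 2.76 with a 95% interval from 1.86 to 4.08, and the adjusted p was 0.00462 in edgeR's quasi-likelihood test. When 43-26, 43-29, 43-49 or 43-75 was left out the adjusted p lay between 0.0123 and 0.0176, which missed 0.01 but not 0.05, and kidney 1 libraries alone gave 0.0167. The same libraries showed the acute phase gene Lbp higher (log2 fold change 0.83, adjusted p = 0.00655 in edgeR's test), but no other of the 6 tested genes of the acute phase and IL6 list was called, and Saa1 and Saa2 were too low to be tested. This 1 of 6 is near the 15.4% of all genes tested that were called higher on the adjusted p alone.

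The RefSeq table of promoters held 4 of the 9 members (C1qb, C1qc, C3 and C3ar1), and C1qa, C2, C4b, Cfb and Cfi were absent from it. The 3 windows printed here belong to C3, the member with the largest fold change, and to a pair of C1q chains whose levels moved together. Each is the 250 bases before the transcription start of RefSeq on GRCm38.p6, read 5′ to 3′ on the gene's strand, with motif matches in capitals. C3 lies at chr17:57228137-57228386, C1qb at chr4:136886201-136886450 and C1qc at chr4:136892915-136893164, all on the minus strand. The start of C1qc in GENCODE, at 136893065, falls inside its window, so part of that window lies within the gene as GENCODE maps it.
C3: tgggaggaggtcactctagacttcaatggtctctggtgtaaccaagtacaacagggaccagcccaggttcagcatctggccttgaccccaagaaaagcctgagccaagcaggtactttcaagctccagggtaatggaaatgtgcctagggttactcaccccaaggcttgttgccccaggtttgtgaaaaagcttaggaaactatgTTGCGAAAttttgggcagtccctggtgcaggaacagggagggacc
C1qb: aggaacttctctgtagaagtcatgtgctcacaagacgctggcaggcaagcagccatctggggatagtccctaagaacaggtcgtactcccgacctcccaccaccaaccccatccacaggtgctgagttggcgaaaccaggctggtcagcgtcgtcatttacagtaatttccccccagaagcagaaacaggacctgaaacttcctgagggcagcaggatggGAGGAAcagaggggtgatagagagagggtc
C1qc: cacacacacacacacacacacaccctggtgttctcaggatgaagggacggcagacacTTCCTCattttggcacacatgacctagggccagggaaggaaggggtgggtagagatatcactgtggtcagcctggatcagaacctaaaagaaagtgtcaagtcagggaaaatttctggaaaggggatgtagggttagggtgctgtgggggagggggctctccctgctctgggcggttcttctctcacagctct
The letters searched on both strands were ACGTG and GCGTG (the core of the hypoxia response element, to which HIF1α binds), GAGGAA (bound by ETS factors such as PU.1 of myeloid cells) and TTGCGNAA (C/EBP factors), a set chosen after the C3 sequence had been seen. Neither ACGTG nor GCGTG was found in these windows or in that of C3ar1, where 16.6% and 28.2% of the 32851 windows in the table hold them. The capitals in C3 mark TTGCGNAA, 45 bases before the start, a match found in 0.67% of all windows. The capitals in C1qb (30 bases before the start) and in C1qc (193 bases before it, on the other strand) mark GAGGAA, which 23.3% of all windows hold. The window of C3ar1 held none of the letters searched. A match of letters is a description of these windows, not a site shown to be bound.

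The C1q chains lie side by side on chromosome 4, C1qb (ENSMUSG00000036905, from 136880129 to 136886187), C1qc (ENSMUSG00000036896, from 136889804 to 136893065) and C1qa (ENSMUSG00000036887, from 136895917 to 136898803), all on the minus strand and within 18.7 kb of GRCm38. C1qa was at 26.6, 22.6 and 26.2 CPM in the TG+ mice, listed in the same order, and at 21.5, 13.1 and 16.7 CPM in the TG- mice. C1qb was at 28.2, 25.1 and 25.8 CPM in TG+ and at 21.8, 13.5 and 16.6 CPM in TG- mice. C1qc was at 17.9, 17.6 and 18.9 CPM in TG+ and at 16.3, 8.93 and 12.3 CPM in TG- mice. For each chain all TG+ mice were above all TG- mice, and among the TG- mice 43-26 was highest, just under the TG+ mice, and 43-50 lowest. The log2 fold changes were alike, 0.55 for C1qa (SE 0.17, adjusted p = 0.0431), 0.61 for C1qb (SE 0.16, adjusted p = 0.0252) and 0.54 for C1qc (SE 0.19, adjusted p = 0.0701) in edgeR's quasi-likelihood test, so that C1qc was not called. Without 43-26 the value for C1qc was 0.77 with an adjusted p of 0.0103, and without 43-50 it was 0.34 with an adjusted p of 0.106. With the 12 libraries as samples and the mouse as a random block in limma, C1qc was called (0.59, adjusted p = 0.0132). The call of C1qa was lost without any one of 43-29, 43-49, 43-50, 43-75 and 43-76 (adjusted p from 0.0534 to 0.121) and that of C1qb without 43-29, 43-75 or 43-76 (0.0658 to 0.0855), and both were lost in kidney 1 libraries alone (0.0625 and 0.0511). Reads of the 3 chains summed, an alternative chosen after seeing the data, gave 0.57 (SE 0.16, adjusted p = 0.0376). The ratio of C1qa to C1qb reads lay between 0.901 and 1.01 in all 6 mice, and that of C1qc to C1qb between 0.634 and 0.747.

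Since C1q is a product of macrophages, the macrophage markers in the same libraries were set beside it. Of 12 markers, 5 rose on the adjusted p alone (Csf1r, Laptm5, Ctss, Cd68 and Mrc1) and none fell, beside the 15.4% (higher) and 10.9% (lower) of all genes tested, and 0 passed the threshold of the study. Their summed level was 282 to 296 CPM in TG+ mice and at most 213 CPM in TG- mice, so that every TG+ mouse was above every TG- mouse. Csf1r, the receptor for the growth factor of macrophages, was at 72.3, 75.5 and 78.6 CPM in TG+ and at 46.4, 52.9 and 46.9 CPM in TG- mice (log2 fold change 0.63, adjusted p = 0.000661 in edgeR's test). Adgre1, which encodes the F4/80 antigen, was at 7.08, 8.29 and 7.77 CPM in TG+ and at 7.97, 3.96 and 6.22 CPM in TG- mice and was not called (adjusted p = 0.286). Of the 12 log2 fold changes 11 were above 0 and 1, that of the abundant marker Mertk, was below it. Mertk was at 45.9, 77.7 and 53.4 CPM in TG+ and at 56.8, 82.3 and 68.4 CPM in TG- mice. Its log2 fold change of -0.23 was not called (adjusted p = 0.448 in edgeR's test). As with the C1q chains, 43-26 had the highest and 43-50 the lowest value among TG- mice for 6 of the 12 markers (Adgre1, Aif1, Cd68, Cx3cr1, Lyz2 and Ms4a7), but not for the other 6. In bulk tissue more cells of a type and more RNA per cell cannot be told apart, and the part of macrophage number in the values of C1q was not tested.

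**Figure D2:**
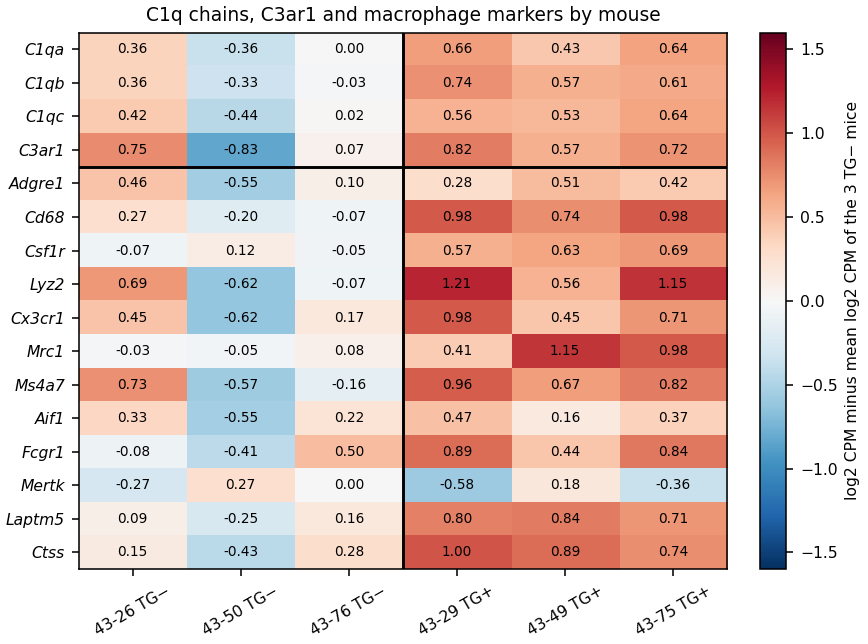
Log2 CPM of the C1q chains, C3ar1 and the 12 macrophage markers in each mouse, minus the mean log2 CPM of the 3 TG- mice (colour and printed value; TG- mice left of the line, TG+ mice right). C1qb stood at 0.36 in the TG- mouse 43-26 and between 0.57 and 0.74 in TG+ mice, and Mertk lay between -0.58 and 0.18 in the TG+ mice.

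C3ar1 (ENSMUSG00000040552, chromosome 6 from 122847138 to 122856161), the receptor for C3a on myeloid cells, was at 5.44, 4.55 and 5.06 CPM in TG+ mice. In TG- mice it was at 5.19, 1.73 and 3.23 CPM, so that 43-26 lay within the TG+ range and the groups overlapped. The log2 fold change of 0.57 (SE 0.33, 95% interval -0.20 to 1.34) was not called (adjusted p = 0.245 in edgeR's test). Leaving out 43-26 raised it to 1.02 with an adjusted p of 0.0324, and leaving out 43-50 lowered it to 0.25 with an adjusted p of 0.461.

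Cfb (ENSMUSG00000090231, chromosome 17 from 34856374 to 34862518) encodes factor B, the protease subunit of the alternative convertase. It was at 459, 432 and 439 CPM in the TG+ mice and at 593, 723 and 647 CPM in the TG- mice. All TG+ mice were below all TG- mice, and so were all 6 TG+ libraries (422 to 463 CPM) below all 6 TG- libraries (583 to 729 CPM). The log2 fold change was -0.56 (SE 0.08, adjusted p = 0.00208 in edgeR's test), a fold of 0.678 with a 95% interval from 0.598 to 0.768. This passed the adjusted p of the study but not its fold limit of 0.5, and without 43-75 or 43-76 the adjusted p of 0.0112 or 0.0115 missed 0.01. The neighbouring gene C2 (ENSMUSG00000024371, from 34862604 to 34898265), which lies 85 bases from Cfb, encodes the matching protease of the classical pathway. Its levels were 53.7, 48.2 and 56.5 CPM in TG+ and 63.9, 81.5 and 79.1 CPM in TG- mice, again without overlap. The log2 fold change of C2 was -0.50 (SE 0.10, adjusted p = 0.0103 in edgeR's test). The ratio of Cfb to C2 reads was 7.77 to 8.97 in TG+ and 8.18 to 9.28 in TG- mice, so the groups overlapped in this ratio.

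Both genes overlap another entry of the count table. The read-through gene Gm20547 joins exons of C2 and Cfb, and its reads were at least 98.0% of those of Cfb in each library, with a log2 fold change of -0.56. Of the windows of 51 bases (the read length) in the transcripts of Cfb, 72.9% also occur in Gm20547, and of those of C2 38.6% do. C2 further overlaps 161 exonic bases of Zbtb12 on the opposite strand, and whether the counting used strand is not given in the sources used here. Reads of Cfb, C2 and Gm20547 therefore cannot be fully assigned to one gene. No window of the C1q chains, C3, Cfi or C3ar1 occurs in a transcript of another gene.

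C4b (ENSMUSG00000073418, chromosome 17 from 34728380 to 34743882) encodes the C4 protein that C1s cuts, and it lies 112 kb before Cfb. It was at 12.5, 10.4 and 10.4 CPM in TG+ and at 13.6, 13.7 and 14.0 CPM in TG- mice. The groups did not overlap, 43-29 was the TG+ mouse nearest to the TG- mice, and the SD of the TG- mice was 0.17 CPM (n = 3). The log2 fold change was -0.31 (SE 0.09, adjusted p = 0.0383 in edgeR's test). The call was lost without 43-26, 43-49, 43-50, 43-75 or 43-76 (adjusted p from 0.077 to 0.114), within either kidney (0.144 and 0.193), with the mouse as a random block over the 12 libraries in limma (0.186) and under scaling by library size alone (-0.19, adjusted p = 0.142).

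C4b has a near copy, C4a (ENSMUSG00000015451, from 34809092 to 34823464, between C4b and Cfb), which encodes the sex-limited protein of male mice. C4a was at 0.546, 1.06 and 0.538 CPM in TG+ and at 1.68, 5.53 and 2.27 CPM in TG- mice. Its log2 fold change of -2.14 (SE 0.49, adjusted p = 0.0169 in edgeR's test) rested on 27 to 60 reads per TG+ mouse, and 43-50, with 316 reads, was the highest mouse. Without 43-50 the value was -1.45 (adjusted p = 0.0264), and without 43-75 the call was lost (adjusted p = 0.0592). With the mouse as a random block in limma C4a passed the threshold of the study as lower (-2.03, adjusted p = 0.00531). The longest transcripts of the pair were identical at 96.1% of 5367 aligned bases, and 33.9% of the windows of 51 bases in C4b occur in C4a. Such reads cannot be told apart by sequence, whereas the stretch printed here could be, since it differs at 12 of 51 bases. It is coding sequence of C4b at chr17:34735434-34735484 (GRCm38, minus strand, transcripts of GENCODE), with the differing bases in capitals.
C4b: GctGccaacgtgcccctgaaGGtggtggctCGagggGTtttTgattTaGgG
C4a: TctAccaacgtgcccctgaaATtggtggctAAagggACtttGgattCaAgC
Summed over both genes, an alternative chosen after seeing the data, the reads were at 13.1, 11.5 and 10.9 CPM in TG+ and at 15.3, 19.3 and 16.2 CPM in TG- mice. The log2 fold change of this sum was -0.52 (SE 0.11, adjusted p = 0.0117 in edgeR's test).

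Cfi (ENSMUSG00000058952, chromosome 3 from 129835884 to 129875332), the protease that inactivates C3b and C4b, was at 8.75, 8.16 and 7.65 CPM in TG+ and at 11.2, 9.11 and 8.35 CPM in TG- mice. The groups overlapped, since 43-29 lay above 43-76. Its log2 fold change of -0.22 (SE 0.12, 95% interval -0.50 to 0.06) was not called (adjusted p = 0.215 in edgeR's test).

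Levels of different genes were compared per length, with the RPKM values that the authors deposited, as the mean of the 2 kidneys of a mouse. In TG- cortex the order was Cfb (63.6 ± 6.26 RPKM, SD, n = 3), C1qa (16.7 ± 4.12), C1qb (16.1 ± 3.89), C2 (7.63 ± 0.964), C3 (6.28 ± 2.27), C1qc (5.90 ± 1.72), Cfi (4.68 ± 0.710), C4b (2.03 ± 0.0314) and C3ar1 (0.808 ± 0.403). Among neighbours in this order, C1qa with C1qb, C2 with C3, C3 with C1qc and C1qc with Cfi overlapped between mice and did not differ beyond their spread. In TG+ cortex C3 (17.1 ± 1.01 RPKM, SD, n = 3) stood above C1qc (8.34 ± 0.362) and C2 (5.26 ± 0.432) in every mouse, below C1qa (23.9 ± 2.25) and C1qb (23.9 ± 1.52), and Cfb was again first (42.1 ± 1.14). The ratio of C3 to Cfb reads was 0.193 to 0.21 in TG+ and 0.0301 to 0.0604 in TG- mice.

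The length behind the deposited values differed most from the annotation used here for the overlapping pair. CPM divided by RPKM gave 10.4 kb for Cfb and 9.9 kb for C2, against 2.83 and 3.87 kb of merged exons in GENCODE, whereas it gave 1.04 kb for C1qa and 5.18 kb for C3, against 1.04 and 5.14 kb. Smaller differences were seen for C4b (6.87 against 5.70 kb), C1qc (2.15 against 1.93 kb) and Cfi (2.07 against 2.22 kb). Per kilobase of merged exons Cfb was first as well, at 232 CPM per kb in TG- and 157 in TG+ mice. By that measure C2 ranked second in TG- mice (19.3 CPM per kb) rather than the fourth, and 5 of 9 ranks changed there, against 2 of 9 in TG+ mice.

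**Figure D3:**
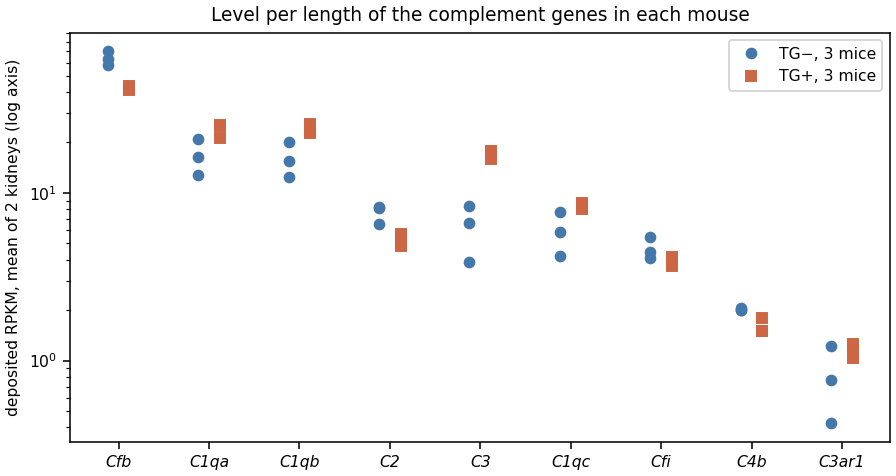
Deposited RPKM (vertical log axis) of the 9 complement genes in each of 3 TG- mice (blue circles) and 3 TG+ mice (orange squares), ordered by the TG- mean. C3 was at 3.86 to 8.37 RPKM in TG- mice and at 15.9 to 17.9 RPKM in TG+ mice.

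The kidneys of a mouse agreed most for Cfb, whose largest difference between kidney 1 and kidney 2 was 0.078 on the log2 CPM scale, a fold of 1.06. C4b differed most, by 0.77 in 43-75, where kidney 1 was at 7.69 and kidney 2 at 13.1 CPM. C3 differed by up to 0.73, in 43-50, where kidney 1 was at 53.0 and kidney 2 at 31.9 CPM. For C3 the 6 TG+ libraries (71.3 to 102 CPM) were nevertheless all above the 6 TG- libraries (17.7 to 53.0 CPM). C3 was separated upwards and Cfb downwards in this way, 1 of 9 each, where 13.4% and 11.7% of all genes tested were, and the other 7 members overlapped between libraries of the groups. The C1q chains differed between kidneys of a mouse by at most 0.39, in 43-49 for C1qa. Kidney 1 libraries alone gave 1 member higher and 2 lower by adjusted p, against 12.9% and 8.95% of the 18199 genes tested in them. Kidney 2 libraries alone gave 3 higher and 2 lower, against 13.7% and 8.61% of 18100 genes.

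**Figure D4:**
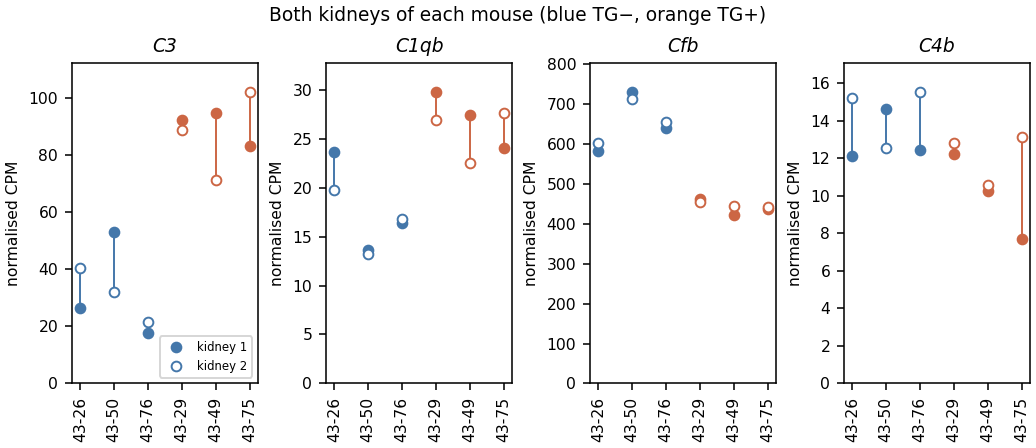
Normalised CPM (vertical axes starting at 0) of C3, C1qb, Cfb and C4b in kidney 1 (filled) and kidney 2 (open) of each mouse, TG- in blue and TG+ in orange, with a line joining the kidneys of a mouse. The TG+ libraries of Cfb lay between 422 and 463 CPM, below all TG- libraries, and the C4b libraries of 43-75 lay at 7.69 and 13.1 CPM.

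The rest of the cascade was taken from a list of 47 genes in 6 roles, of which C1rb was not matched by symbol and others, among them C1s2, Fcnb, Colec10, Hc, C8b, C4bp, Cd55b and Vsig4, had too few reads to be tested. Of the 37 tested, 8 were higher past the threshold of the study and 0 lower, beside the 3.77% and 0.211% of all genes tested. With no fold limit 13 were higher and 2 lower, beside 15.4% and 10.9% of all genes. Their median log2 fold change was 0.43, beside 0.012 over all genes tested, with a range from -2.14 to 1.93.

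Among the genes that start the classical and lectin pathways, 3 of 8 tested rose on the adjusted p alone and none fell. Of all genes tested, 15.4% were higher and 10.9% lower by that rule. C1ra, the protease that C1q activates first, was at 10.3, 9.38 and 9.96 CPM in TG+ and at 4.27, 4.48 and 5.38 CPM in TG- mice (log2 fold change 1.07, SE 0.11, adjusted p = 0.0005 in edgeR's test). C1s1, the protease that C1r activates, had a value of 0.85 (SE 0.08, adjusted p = 0.000335) and did not reach the fold limit. Masp1, a protease of the lectin pathway, was at 1.80 to 2.16 CPM in TG+ and 0.702 to 0.798 CPM in TG- mice, with a log2 fold change of 1.38 (SE 0.16, adjusted p = 0.000894). The mannose-binding lectins Mbl1 (-0.67, adjusted p = 0.182) and Mbl2 (-0.44, adjusted p = 0.277) were not called, nor were Masp2, Fcna and Colec11 (adjusted p = 0.147, 0.179 and 0.0505).

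The plasma inhibitors held 4 of 7 tested genes that rose on the adjusted p alone and none that fell, beside 15.4% and 10.9% of all genes tested. Serping1, the inhibitor of C1r and C1s, was at 54.5, 68.2 and 65.0 CPM in TG+ and at 39.6, 36.7 and 37.9 CPM in TG- mice (log2 fold change 0.72, SE 0.09, adjusted p = 0.00116 in edgeR's test). Cfhr2 (1.44, adjusted p = 0.00391) and Vtn, the gene of vitronectin (1.93, adjusted p = 0.00766), passed the threshold of the study at no more than 1.11 CPM, Vtn with 16 to 21 reads per TG+ mouse. Vtn missed the adjusted p of the study without any one of the 6 mice (0.0167 to 0.0274) and in DESeq2 (0.0157), and Cfhr2 missed it without any one mouse other than 43-29 (0.0106 to 0.0173). Clu, which had more reads than any other gene of this role, was at 324 to 394 CPM in TG+ and 260 to 343 CPM in TG- mice and was not called (adjusted p = 0.122).

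On membranes, 1 of 7 tested inhibitors rose, a share near the 15.4% of all genes, namely Csmd1 (1.08, adjusted p = 0.00751), and Cd55, Cd46, Cd59a, Cd59b, Cr1l and Susd4 were not called. Csmd1 missed the adjusted p of the study without any one of the 6 mice (0.0124 to 0.0351). Cd55, which speeds the decay of convertases, was at up to 10.7 CPM in TG+ and at 11.8 to 12.1 CPM in TG- mice (-0.22, adjusted p = 0.0705). Cr1l, the rodent Crry that protects host cells from C3 deposition, was at 18.4 to 19.2 CPM in TG+ and 17.9 to 20.1 CPM in TG- mice, with an interval of the log2 difference from -0.19 to 0.12.

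Of 7 receptors tested, 4 rose on the adjusted p alone, beside 15.4% of all genes tested. Itgax, Itgb2 and Itgam encode chains of the complement receptors CR3 and CR4 of myeloid cells, with log2 fold changes of 1.12, 1.01 and 0.74 (adjusted p = 0.00114, 0.000827 and 0.00706 in edgeR's test). Cd93, once described as a receptor of C1q and expressed by endothelium, was at 51.6, 39.2 and 49.5 CPM in TG+ and at 23.3 ± 5.57 CPM (SD, n = 3) in TG- mice (1.01, adjusted p = 0.00552). Itgb2 and Cd93 lay just above the fold limit, and Itgb2 was below it without 43-29, 43-49 or 43-50 (0.90 to 0.98) and Cd93 without 43-29, 43-50, 43-75 or 43-76 (0.85 to 0.99). C5ar1, C5ar2 and Cr2 were not called.

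Of the 5 terminal components tested, C6 was higher (1.06, SE 0.30, adjusted p = 0.0371) and C8g lower (-0.30, SE 0.09, adjusted p = 0.0479), both close to the limit in edgeR's test. That is 1 of 5 in each direction, beside 15.4% higher and 10.9% lower among all genes tested. Without any one of 43-26, 43-49, 43-50, 43-75 and 43-76 both calls were lost, with adjusted p from 0.069 to 0.102 for C6 and from 0.0851 to 0.132 for C8g. The call of C6 was also lost with the mouse as a random block in limma (0.93, adjusted p = 0.107) and in kidney 1 libraries alone (1.03, adjusted p = 0.204), and that of C8g in kidney 2 libraries alone (-0.23, adjusted p = 0.2), under scaling by library size alone (-0.18, adjusted p = 0.17) and with no filter on low counts (-0.30, adjusted p = 0.0526). Without the libraries with fat cell transcripts C6 was at 0.50 (adjusted p = 0.192) and C8g at -0.20 (adjusted p = 0.147). C8a (-0.51, adjusted p = 0.0514), C7 and C9 were not called. Cfd, which encodes factor D and is made by fat cells, had 1 to 2 reads in 43-29, 43-26 and 43-76 but 555, 181 and 297 reads in 43-49, 43-75 and 43-50, the mice with fat cell transcripts, and was not called (adjusted p = 0.563). Without those libraries 3 of the 9 members were called on the adjusted p alone instead of 6, with 2 TG+ mice left. C3 was at 1.62 (adjusted p = 0.00207), C1qa at 0.58 (0.0615), C1qb at 0.59 (0.0598) and C4b at -0.39 (0.171), so that the fold changes of the 3 genes whose calls were lost were close to or larger than with all libraries.

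**Figure D5:**
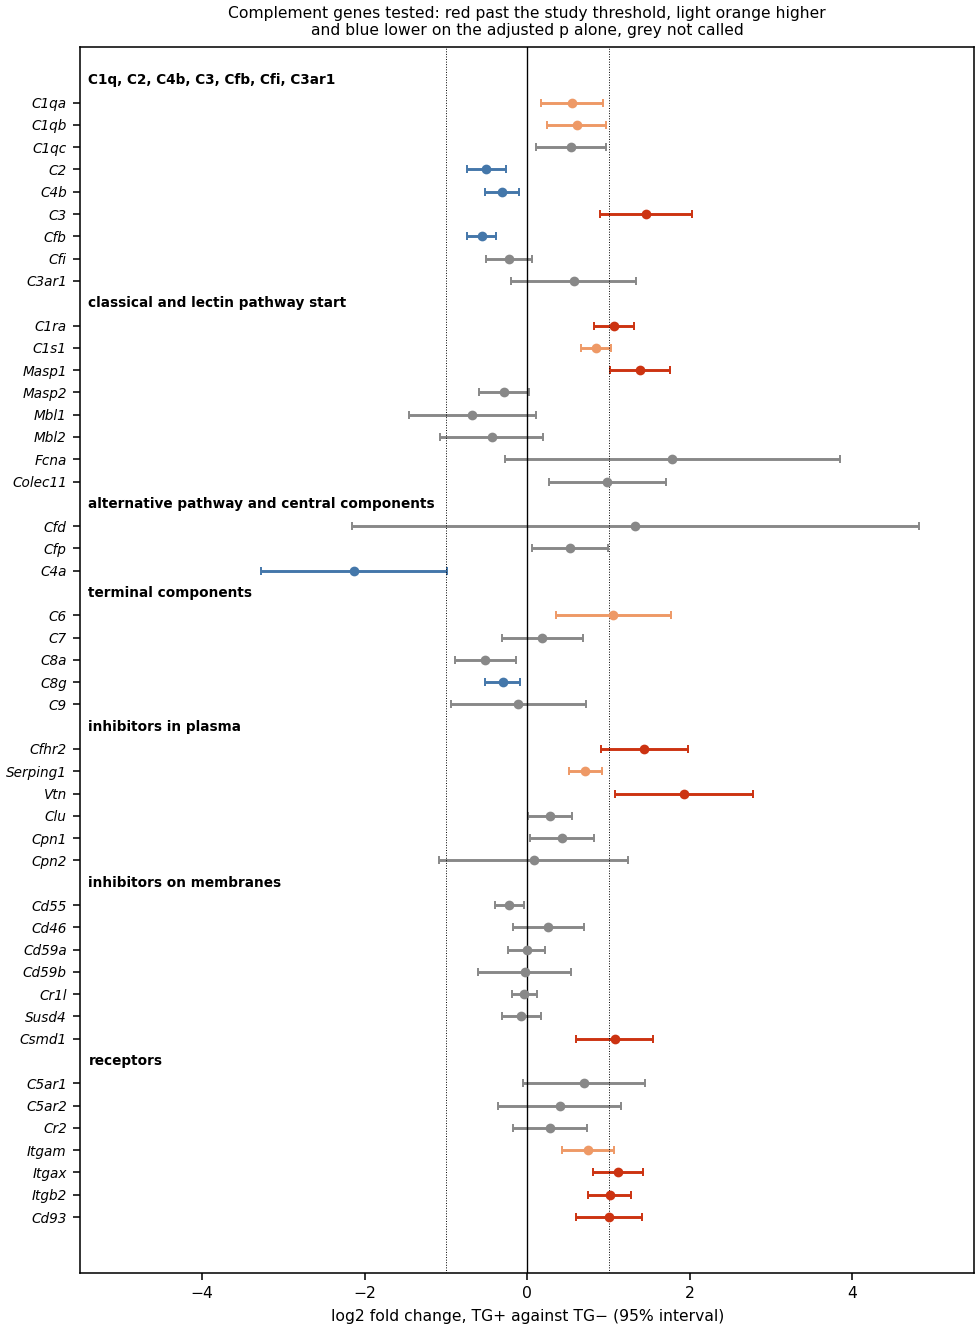
Log2 fold change of TG+ against TG- mice (horizontal axis) with its 95% interval for the 9 members (top block) and 36 of the 37 other complement genes tested, grouped by role. Red points passed the threshold of the study, light orange and blue points met only the adjusted p limit, upwards or downwards, grey points were not called, and dotted lines mark the fold limits of the study.

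Markers of other cells moved in the same mice, and their counts stand beside the 15.4% of all genes tested that were higher and the 10.9% that were lower. Markers of the proximal tubule, where the transgene is made, were lower, with 6 of 10 falling on the adjusted p alone and a sum of 30920 to 34640 CPM in TG+ against 42270 to 44680 CPM in TG- mice. Slc22a6, an organic anion transporter, was the one past the threshold of the study (-1.09, adjusted p = 4.8e-05 in edgeR's test), and Kap, the list's gene with the most reads, was not called (-0.08, adjusted p = 0.528). This list moved in the direction of Cfb, C2 and C4b, and its part in their values was not tested. Lymphocyte markers rose in 6 of 8, with Cd3e, Cd4, Cd79a and Cd79b past the threshold, at a summed 13.0 to 17.5 CPM in TG+ and 6.24 to 7.47 CPM in TG- mice. Tubule injury markers rose in 6 of 8, among them Havcr1 (2.78), Krt19 (1.91) and Cd44 (1.49) past the threshold, while Spp1, the most abundant by reads, was not called (0.12, adjusted p = 0.367). Genes of the interferon response rose in 4 of 10 on the adjusted p alone (Irf1, Psmb8, Cxcl10 and Ciita). Of 6 podocyte and mesangial markers Podxl and Pdgfrb rose. Of 6 tested secreted proteins of liver, Apoa1 (3.64) and Ttr (1.42) passed the threshold and Alb did not (0.47, adjusted p = 0.16). The part of any of these lists in the values of the complement genes was not tested.

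The members fell into sets by their course over the 12 libraries, given as a description, since the kidneys of a mouse are not independent and the genotypes differ. Pearson's r of log2 CPM was 0.979 for C1qa with C1qb, 0.97 for C1qa with C1qc and 0.969 for C1qb with C1qc, and 0.937 for Cfb with C2. After the mean of each genotype was subtracted, r was still 0.936 to 0.958 among the C1q chains, 0.884 to 0.937 for C3ar1 with each of them, and 0.755 for Cfb with C2. After this step C3 had r between -0.196 and -0.114 to the C1q chains and 0.327 to Cfb, and C4b had r between 0.0376 and 0.163 to the C1q chains and 0.222 to Cfb. Cfb ran opposite to the C1q chains and C3ar1, with r between -0.878 and -0.749. C2 and Cfb share reads of Gm20547, which bears on their likeness.

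Among genes of at least 1 CPM, those most like C1qa over the 12 libraries were Sh3pxd2b (r = 0.984), the lysozyme gene Lyz2 (0.979) and C1qb. For C1qb they were Tgfbi (0.98), C1qa and 0610009E02Rik (0.973), and for C1qc C1qa, Il3ra (0.97) and C1qb. For C3 they were Gm9311 (0.97), Rras (0.965) and Ifrd1 (0.964), for C2 Gatb (0.983), Glmp (0.981) and Ctsl (0.977), and for Cfb Gm20547 (0.999), Aldh2 (0.992) and Fbxo36 (0.991). C3ar1 was nearest to Rb1 (0.951), C1qc and Rsph4a (0.942). C4b (Mrps23, 0.9, Lamtor5, 0.893, and Cox7b, 0.875) and Cfi (Rdh16f2, 0.901, beside a pair of genes without a symbol) had no gene as near. With the genotype means subtracted, Adgre1 (0.944) and Cd34 (0.955) joined C1qb among the nearest of C1qc, and for C3 the nearest were Calr-ps (0.918), Yipf1 (0.899) and Tmem243 (0.888).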

How the data were processed

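Kidney cortex RNA of 3 TG+ and 3 TG- mice was sequenced by the authors as 51-base single-end reads and analysed, per their methods, mainly with the Tuxedo tools. The submitters' processing notes name the build mm9. The counting program, annotation release and strand setting are not given in the sources used here. The authors deposited read counts per Ensembl gene for 12 libraries, without normalization, and RPKM values scaled by a method the header calls BUQ, which were used only for levels per length. Of the per-sample columns, 12 of log2 RPKM were not used, nor were the authors' fold changes, p-values and q-values.

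The members and all lists were chosen with earlier results of these data known. The counts of both kidneys of a mouse were summed, and genes were kept by filterByExpr, scaled by TMM factors of 0.944 to 1.07. The quasi-likelihood test of edgeR 4.0.16 was run in R 4.3.3 (limma 3.58.1 for the blocked alternative), and p-values of 19399 genes were adjusted by the Benjamini-Hochberg method. The p-values measure the spread between 3 mice and 3 mice. CPM are counts scaled to a common size of the TMM-scaled library. Named were all members, all other complement genes called, the gene with the highest level in each role, genes not tested, the marker genes past the threshold and the most abundant marker of each list, and the 3 genes nearest to each member by Pearson's r. Further markers were picked once their values were known. Positions were taken from GENCODE M21 on GRCm38, where the Ensembl identifiers of 32642 of the 37681 genes were found. Intervals for counting error were left out, and some genes of the lists are not reported here. The procedure was tested on simulated counts. Alternatives were DESeq2 1.42.0, other scalings, no filter, each kidney as a library, pairs of mice and leaving out each mouse. Python 3.11.15 with numpy 2.4.6, pandas 2.3.3, scipy 1.17.1 and matplotlib 3.10.9 made tables and plots.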

Additional observations from a re-analysis of the deposited data

How the results depend on the processing

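No fold change of a member, or of a complement gene called, reversed under any alternative run. The count of members past the threshold of the study, 1 in the main analysis, was 0 in kidney 1 libraries alone and at an adjusted p below 0.001, and 0 to 1 when a mouse was left out. On the adjusted p alone it was 6, and 3 in kidney 1 libraries alone and without the libraries with fat cell transcripts, 3 to 7 when a mouse was left out (3 without 43-75 or 43-76), and 7 with pairs of mice as a replicate block. The other complement genes past the threshold of the study numbered 8, and 4 in kidney 1 libraries alone, 2 in kidney 2 libraries alone, 5 without the libraries with fat cell transcripts, 3 at an adjusted p below 0.001, and 3 to 5 when a mouse was left out, each of the 6 mice included. Fewer samples entered the analyses of one kidney or without a mouse or library, and the cause was otherwise not tested. Whether the counts without a mouse or with pairs of mice followed the number of calls among all genes was not tested either. DESeq2 called 6 of them higher and C4a lower, and C1qc joined the members called (adjusted p = 0.0206). C4a also passed that threshold with no filter on low counts (adjusted p = 0.0074), with the 12 libraries as independent samples (0.000504) and with the mouse as a random block (0.00531). With the mouse as a random block 6 members were called on the adjusted p alone, C1qc joining and C4b leaving, and C6 was lost. Scaling by library size alone also added C1qc (adjusted p = 0.0414). Scaling by library size alone moved the median log2 fold change of all genes from 0.012 to 0.13 and the share of genes called from 15.4% higher and 10.9% lower to 23.3% and 4.88%, and of members to 4 higher and 2 lower. Relative to that median C4b stood at -0.33 and Cfb at -0.57. The pairs named in the deposited table (43-26 with 43-29, 43-49 with 43-50, 43-75 with 43-76) had correlations of their deviations from the group means of 0.392, 0.326 and -0.024. For the other pairings of a TG+ with a TG- mouse these lay between -0.388 and 0.032. The pairs 43-26 with 43-29 and 43-49 with 43-50 thus stood above all other pairings, and 43-75 with 43-76 did not. Pairing was therefore not taken as given for all mice, and the block result is shown here alone. With these pairs as a replicate block C1qc was called (0.57, adjusted p = 0.0329), C4a passed the threshold of the study (-2.08, adjusted p = 0.000962), Vtn missed it (adjusted p = 0.0131), and 19 other complement genes were called on the adjusted p alone, the 15 of the main analysis included. Few reads limit Vtn, Cfhr2 and C6. The near-identical copies of C4 and the read-through of C2 and Cfb limit the reading of those genes at any depth.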
